A study of Mus musculus with 11 samples.

Results

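The genes described here are those of fatty acid and cholesterol synthesis, a list of 30 mouse genes followed in luminal and basal cells of the mammary gland. The list is a list of names that uses no measured value, but it was chosen with earlier results of these data known. Each gene was found on the array through the RefSeq accession of its probe. All 30 had a probe, and for 28 of them a probe cleared the scanner's background test on 3 or more of the 11 arrays. Those 28 were tested among 29429 features, of which 14068 were named genes. The other 2 members were not tested. The probe of Lss, which encodes lanosterol synthase, was well above background on 0 of 11 arrays, with processed signals of 2.52 to 7.73. The probe of Gpam, which encodes the mitochondrial acyltransferase that starts glycerolipid assembly, was well above background on 2 of 11 arrays, with signals of 2.83 to 29.8.

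Cells make fatty acids in the cytosol from acetyl-CoA and NADPH, then elongate, desaturate and esterify the chains into glycerolipids. Cholesterol is built from the same acetyl-CoA through mevalonate, isoprenoids and squalene. Both routes are driven by SREBP transcription factors, which the sterol-sensing escort protein SCAP carries to the Golgi and INSIG proteins hold back. In the mammary gland, the secretory cells that make milk fat arise in the luminal layer, and the basal layer consists mainly of contractile myoepithelial cells.

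Primary mouse mammary epithelial cells were transduced overnight with a lentivirus carrying either a control hairpin against luciferase (shLUC) or a hairpin against the Wnt receptor Ror2 (shROR2), and were injected in a matrigel mix to form outgrowths. Cells of the outgrowths were sorted on CD24 and CD29 into luminal and basal fractions, so every group had been transduced, transplanted and sorted. The 4 groups were luminal shLUC (3 arrays), luminal shROR2 (2), basal shLUC (3) and basal shROR2 (3); 1 further luminal shROR2 sample is not analysed here. The labels speak of biological triplicates but not of which animals or outgrowths they came from, and the strain and age are not given in the sources used here. The study asked what Ror2 does in each epithelial compartment. The RNA was amplified, labelled with Cy3 and hybridised to 1-colour Agilent arrays, and the p-values measure the spread between these arrays.

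Between 52.8% and 59.5% of probes per array lay well above background, and the correlation within a group was 0.975 to 0.982, or 0.938 to 0.95 in basal shROR2. The median SD of the members was 0.312 in basal shROR2 and 0.144 to 0.167 in the other groups (log2 units), beside 0.345 and 0.143 to 0.188 over all features. The hairpin's target could not be used to check the labels. The Ror2 probe gave signals of 3.14, 3.44 and 3.48 on luminal shLUC arrays and 3.54 and 8.47 on luminal shROR2 arrays. On basal arrays it gave 11.1, 12.1 and 10.1 with shLUC and 16.8, 3.03 and 6.93 with shROR2. It was well above background only on the first of those basal shROR2 arrays. On the scaled log2 values the libraries labelled shROR2 differed by 0.67 from shLUC in luminal cells (exact permutation, 2-sided p = 0.3, n = 2 and 3) and by -0.57 in basal cells (exact permutation, 2-sided p = 0.7, n = 3 and 3), where the smallest p either design allows is 0.1. Groups below are therefore named by their labels. Luminal markers summed to 435 to 495 on luminal arrays and 64.2 to 96.1 on basal arrays, in units of each array's 75th percentile, and basal myoepithelial markers to 109 to 121 and 1440 to 1690.

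Promoter sequences are shown for 5 members around which the results turn: Acly, Me1 and Idi1, which were lower in basal cells, Cyp51, which was higher there, and Hmgcs1, whose level was alike in both shLUC compartments and whose window held the only sterol regulatory element found. Each is the 250 bases before an annotated start, read 5′ to 3′ on the gene's strand from RefSeq (GRCm38.p6). Capitals mark matches, on either strand, to the sterol regulatory element TCACNCCAC, the E-box CACGTG, the CCAAT box or the GC box GGGCGG. Read on the other strand, the last of these is CCGCCC and the CCAAT box is ATTGG, and neighbouring matches may overlap.
Acly (chr11:100528001-100528250, minus strand): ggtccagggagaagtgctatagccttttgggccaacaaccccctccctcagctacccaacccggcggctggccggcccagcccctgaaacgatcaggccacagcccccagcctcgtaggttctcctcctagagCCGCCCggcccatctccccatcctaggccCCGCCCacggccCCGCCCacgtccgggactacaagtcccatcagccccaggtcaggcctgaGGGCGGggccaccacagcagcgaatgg
Me1 (chr9:86695915-86696164, minus strand): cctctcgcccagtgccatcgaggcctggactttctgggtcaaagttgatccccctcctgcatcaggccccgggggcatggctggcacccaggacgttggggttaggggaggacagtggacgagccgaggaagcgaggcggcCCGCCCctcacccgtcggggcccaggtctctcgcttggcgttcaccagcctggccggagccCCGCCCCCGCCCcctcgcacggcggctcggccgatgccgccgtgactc
Idi1 (chr13:8885356-8885605, plus strand): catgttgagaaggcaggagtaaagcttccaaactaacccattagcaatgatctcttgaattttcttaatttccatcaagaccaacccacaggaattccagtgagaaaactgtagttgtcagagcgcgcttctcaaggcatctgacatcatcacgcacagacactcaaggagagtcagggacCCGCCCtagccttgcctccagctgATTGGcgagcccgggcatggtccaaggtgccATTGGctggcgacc
Cyp51 (chr5:4104698-4104947, minus strand): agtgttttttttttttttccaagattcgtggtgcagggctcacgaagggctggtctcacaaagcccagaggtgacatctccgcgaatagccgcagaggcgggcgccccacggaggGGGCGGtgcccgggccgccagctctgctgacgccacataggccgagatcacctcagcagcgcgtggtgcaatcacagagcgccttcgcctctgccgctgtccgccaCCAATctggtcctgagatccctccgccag
Hmgcs1 (chr13:119690101-119690350, plus strand): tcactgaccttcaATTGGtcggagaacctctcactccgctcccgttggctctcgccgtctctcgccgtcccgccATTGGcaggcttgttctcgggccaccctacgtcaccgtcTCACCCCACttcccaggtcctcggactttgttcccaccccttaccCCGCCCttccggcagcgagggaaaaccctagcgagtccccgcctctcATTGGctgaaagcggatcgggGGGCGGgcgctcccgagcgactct
Promoter windows were found for 23 of the 30 members, 31 windows in all. A further Me1 window, not shown (chr9:86687278-86687527), held a CCAAT box and no GC box. The sterol element matched 1 of the 31 windows (3.23%), beside 1.05% of all 32851 promoter windows of that length. The E-box matched 5 of 31 (16.1%, beside 6.02%), in Dhcr7, Elovl5, Insig1, Sc5d and Scap. The CCAAT box matched 19 of 31 (61.3%, beside 33.8%) and the GC box 21 of 31 (67.7%, beside 32.7%). The Idi1 and Cyp51 windows, from genes that moved in opposite directions between the compartments, each held CCAAT and GC boxes. The windows of Elovl6 and Lpin1, which were also lower in basal shLUC cells, held none of these matches and are not shown. No window was found for Scd1 or Fdps. Matches of letters are descriptions and not binding sites.

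In the control outgrowths the largest movement was between the compartments. Of the 28 tested members, 7 were lower and 1 was higher in basal than in luminal shLUC cells (limma, Benjamini-Hochberg adjusted p under 0.05, n = 3 and 3). That is 25% and 3.57% of the members, beside 13% and 13.8% of all features tested. Changes are differences of log2 processed signal after each array's 75th percentile was subtracted, basal minus luminal. Their median was -0.33 over the members and -0.06 over all features. The genes that fell in basal cells were Scd1, Me1, Lpin1, Fdps, Elovl6, Idi1 and Acly, and the gene that rose was Cyp51. Of the 10 fatty acid members, from acetyl-CoA supply to desaturation, 4 fell and 0 rose, with a median of -0.48. Of the 11 tested sterol members, from Hmgcs1 to Dhcr7, 2 fell and 1 rose, with a median of -0.10. None of the 4 regulators passed (smallest adjusted p 0.288). In sorted bulk cells, a smaller share of cells of a type and less RNA per cell cannot be told apart.

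**Figure D1:**
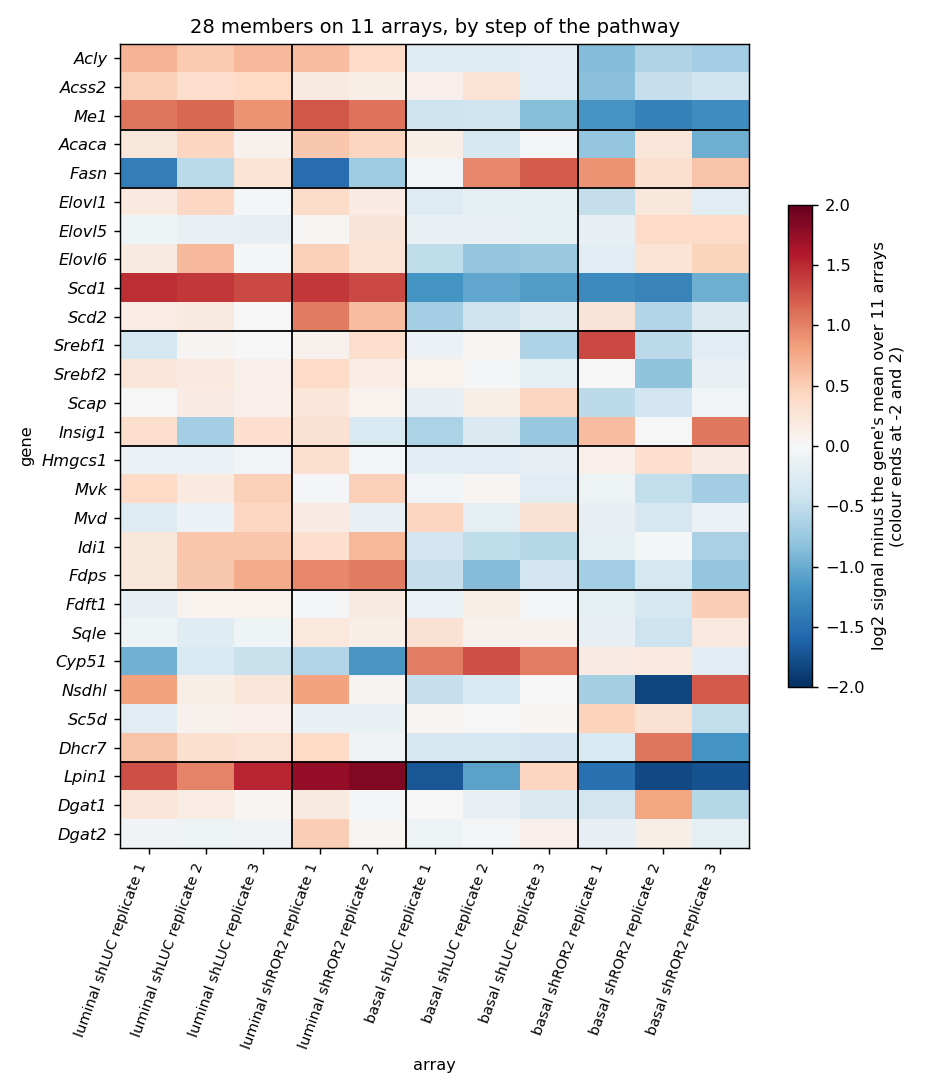
Signal of the 28 tested members (rows, grouped by step from acetyl-CoA supply at the top to glycerolipids at the bottom) on the 11 arrays (columns), as log2 scaled signal minus the gene's mean over the arrays; red is above and blue below that mean, and black lines part the steps and the groups. Scd1, Me1 and Acly are above their mean on all luminal arrays and below it on all basal arrays, Cyp51 is below its mean on all luminal arrays and above it on 5 of 6 basal arrays, and Srebf1, Nsdhl and Dhcr7 are uneven among the basal shROR2 arrays.

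Scd1, the stearoyl-CoA desaturase that makes monounsaturated fatty acids, had the largest change and the smallest p. Its processed signal was 1920, 1900 and 1790 on the luminal shLUC arrays and 309, 389 and 322 on the basal shLUC arrays. The basal level was 5.77-fold lower (-2.53 ± 0.12, SE, adjusted p = 1.08e-06), and no basal array came near a luminal one. The same gene read 1960 and 1760 in luminal shROR2 and 288, 280 and 350 in basal shROR2, a change of -2.56 (5.88-fold, adjusted p = 3.29e-06). Its closest relative on the list, Scd2, moved less in control cells. Scd2 read 184, 192 and 172 in luminal and 107, 146 and 140 in basal shLUC cells, without overlap, but its change of -0.55 ± 0.22 did not pass (adjusted p = 0.0995). It passed when only the groups compared were fitted (adjusted p = 0.0251, where the alternatives ranged from 0.0251 to 0.165), with array weights (0.0268), in the authors' deposited table (0.0482) and without basal shROR2 replicate 1 (0.0384). Between shROR2 compartments Scd2 fell by 1.05 (adjusted p = 0.0151), but not without luminal shROR2 replicate 1, where the change was -0.84 with an adjusted p of 0.133.

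Among the genes that supply the pathway, Me1, the cytosolic malic enzyme that yields NADPH, read 519, 557 and 478 in luminal and 191, 217 and 138 in basal shLUC cells. It fell by 1.59 ± 0.15 (SE, 3.02-fold, adjusted p = 6.16e-05). In shROR2 cells it read 628 and 537 in luminal and 110, 99.1 and 104 in basal cells, a change of -2.43 (5.37-fold, adjusted p = 1.34e-05). All 3 measured Me1 probes were called lower in basal cells in both hairpin groups, by 1.59 to 2.15 in shLUC and 2.03 to 2.43 in shROR2. Acly, ATP-citrate lyase, which makes cytosolic acetyl-CoA from citrate, read 248, 228 and 252 in luminal and 133, 153 and 135 in basal shLUC cells. It fell by 0.85 ± 0.12 (1.81-fold, adjusted p = 0.000709) and, between shROR2 compartments, by 1.21 (2.32-fold, adjusted p = 0.000211). Its second probe was also called in both, at -0.65 and -0.56. Acss2, which makes acetyl-CoA from acetate, read 86.6, 81.5 and 85.1 in luminal and 69.1, 88.7 and 54.4 in basal shLUC cells, and its change of -0.35 did not pass (adjusted p = 0.158).

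Neither chain-building enzyme passed between shLUC compartments. Acaca, acetyl-CoA carboxylase 1, which commits acetyl-CoA to fatty acids, changed by -0.31 ± 0.29 (adjusted p = 0.475), and its 3 probes disagreed in sign (-0.31, -0.43 and 0.48). Between shROR2 compartments Acaca read 250 and 222 in luminal against 94.8, 195 and 81.7 in basal cells, without overlap. That change of -0.99 did not pass (adjusted p = 0.0589), but it was called in 5 of 23 alternatives. The other Acaca probes, each fitted on its own with limma, gave -0.48 and 0.09 there (adjusted p = 0.454 and 0.867). Fasn, fatty acid synthase, was dim on this array. Its signals were 3.28, 6.01 and 10.8 in luminal shLUC, none well above background, and 8.46, 19.3 and 20.1 in basal shLUC, where 2 of 3 were. The change did not pass (adjusted p = 0.0784), and the basal signal of 8.46 lay below the luminal signal of 10.8, so no fold is given. It passed without luminal shLUC replicate 3 (adjusted p = 0.0331) and without basal shLUC replicate 1 (adjusted p = 0.0414). Where an at-least fold is given below, it sets the bright group's mean against, on each array of the dim group, the lowest signal that was well above background. Of the elongases, Elovl6, which lengthens the chains that fatty acid synthase releases, read 168, 238 and 151 in luminal and 106, 99.7 and 89.7 in basal shLUC cells and fell by 0.95 ± 0.22 (1.93-fold, adjusted p = 0.012). Elovl1 and Elovl5 changed by -0.40 and -0.03 and did not pass (adjusted p = 0.152 and 0.925).

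**Figure D2:**
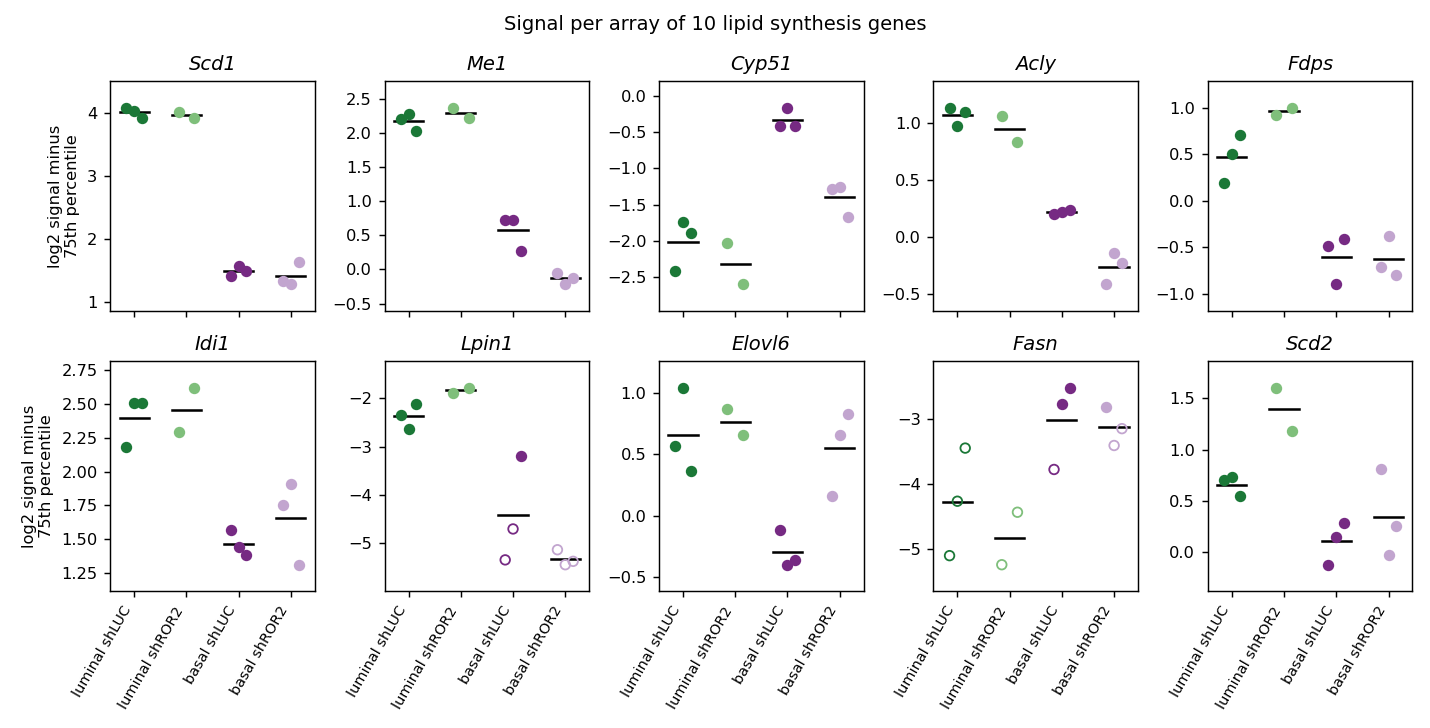
Log2 scaled signal (y axis, log2 processed signal minus the array's 75th percentile) of the 10 members with the smallest p between basal and luminal shLUC cells; each point is 1 array, bars are group means, and open points were not well above background. The luminal and basal shLUC points do not overlap for 9 of the 10, and for Fasn they overlap, with all luminal points open.

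On the sterol side, Fdps and Idi1 fell and Cyp51 rose. Fdps, which makes farnesyl diphosphate, read 129, 164 and 193 in luminal and 82.3, 70.2 and 86.3 in basal shLUC cells and fell by 1.07 ± 0.19 (2.11-fold, adjusted p = 0.00299). Idi1, the isomerase that makes dimethylallyl diphosphate, read 512, 661 and 668 against 344, 355 and 299 and fell by 0.94 ± 0.18 (1.92-fold, adjusted p = 0.00472). The groups did not overlap for either gene. Cyp51, lanosterol 14-alpha-demethylase, ran the opposite way. It read 21.3, 34.6 and 31.7 in luminal and 86.8, 118 and 85.6 in basal shLUC cells and rose by 1.68 ± 0.22 (3.20-fold, adjusted p = 0.000596). In the authors' deposited table and after normexp background correction the size of the Cyp51 change was smaller, down to 0.77, and it stayed called. The other tested sterol members did not pass, and Lss was not tested. Hmgcs1, HMG-CoA synthase, read 440, 454 and 475 against 421, 481 and 434 (-0.10 ± 0.12, adjusted p = 0.586). Sqle, squalene epoxidase, read 1370, 1250 and 1420 against 1830, 1780 and 1570 (0.30 ± 0.16, adjusted p = 0.218). Mvk, Mvd, Fdft1, Nsdhl, Sc5d and Dhcr7 did not pass either, with changes of -0.74 (Dhcr7) to 0.17 (Mvd). The 2 measured Fdft1 probes, for squalene synthase, gave -0.01 and 0.63.

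Of the glycerolipid genes, Lpin1, the phosphatidate phosphatase lipin 1, read 22.3, 18.6 and 27.3 in luminal shLUC cells and 2.87, 5.07 and 12.5 in basal shLUC cells, where 1 of 3 arrays was well above background. It fell by 2.05 ± 0.45 (adjusted p = 0.00931), by 0.36 at the least under any alternative, and was called under all of them. Dgat1 and Dgat2, which make triglyceride, changed by -0.30 and 0.07 (adjusted p = 0.522 and 0.773). The regulators Srebf1, Srebf2, Scap and Insig1 changed by -0.13, -0.22, 0.04 and -0.56, with adjusted p of 0.288 to 0.895. None of the genes for SREBP factors or their sterol sensors passed, so the 8 called members were all enzymes.

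The arrays lay on 2 slides, each with arrays of all 4 groups. Within slide 1 and slide 2, Scd1 changed by -2.64 and -2.42 between shLUC compartments, Me1 by -1.71 and -1.42, and Acly by -0.92 and -0.82. Fdps changed by -0.65 and -1.51, Idi1 by -0.71 and -1.08, and Elovl6 by -0.81 and -1.10. Lpin1 changed by -1.93 and -2.33 and Cyp51 by 1.98 and 1.66. Every one of these 8 kept its direction on both slides and stayed called with the slide as a block (largest adjusted p 0.0237, Elovl6). The median of the members was -0.41 on slide 1 and -0.26 on slide 2. All 8 also stayed called under each of 23 alternatives, the leaving out of each array included.

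The same comparison was made between shROR2 compartments. Its means come from other arrays, but the estimate of the spread is shared with the shLUC arrays, so it is not a fully independent repeat. There 8 members were lower and 2 higher in basal cells (n = 3 and 2), which is 28.6% and 7.14% of the members, beside 12.3% and 10.6% of all features. The median change was -0.38, beside -0.08 over all features. Scd1, Me1, Acly, Fdps, Idi1, Lpin1 and Cyp51 were called in the same direction in both, which is 87.5% of the 8 called in shLUC and 70% of the 10 called in shROR2. Over all features the shared calls were 63.4% and 74.4%. Fdps read 229 and 231 in luminal and 69.5, 88.8 and 64.6 in basal shROR2 cells, a change of -1.59 (3.01-fold, adjusted p = 0.000751). Lpin1 was not well above background on any basal shROR2 array (3.25, 2.65 and 2.71, against 32.8 and 33.6 in luminal) and was at least 2.58-fold lower (adjusted p = 0.00119). Elovl6, called in shLUC, read 222 and 183 against 127, 182 and 199 and was not called in shROR2 (-0.22, adjusted p = 0.58). The difference between these 2 compartment changes of Elovl6 did not pass (0.73 ± 0.33, adjusted p = 0.61).

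Several of the shROR2 calls rested on few arrays. Idi1 read 593 and 707 against 383, 434 and 279 (-0.80, adjusted p = 0.0209); without luminal shROR2 replicate 2 it was -0.63 with an adjusted p of 0.158. Cyp51 read 29.7 and 19.0 against 47.1, 48.4 and 35.2 (0.92, adjusted p = 0.0285). Without luminal shROR2 replicate 2, basal shROR2 replicate 1 or basal shROR2 replicate 2 its changes were 0.63, 0.85 and 0.84, with adjusted p of 0.217, 0.0636 and 0.0608. A luminal shROR2 array left alone was taken to vary like the other groups. Acss2 read 76.3 and 69.6 against 35.3, 46.3 and 47.3 (-0.72, adjusted p = 0.0207), and was not called without luminal shROR2 replicate 1 (adjusted p = 0.12) or without replicate 2 (0.0891). The second Acss2 probe changed by 0.04 (adjusted p = 0.95). Fasn was called higher in basal cells (adjusted p = 0.0426), but luminal shROR2 signals of 3.18 and 5.29 and 2 of the 3 basal signals (16.1, 10.9 and 12.7) were not well above background, so no fold is given. The Fasn call was lost on leaving out any of 7 arrays, both luminal and all 3 basal shROR2 replicates, luminal shLUC replicate 2 and basal shLUC replicate 2 (adjusted p = 0.053 to 0.259). It was also lost with normexp (adjusted p = 0.0859), in the authors' deposited table refitted with limma (0.0814), with no filter (0.0723), array weights (0.104), a trended prior variance (0.0598) and the replicate block (0.0539). Cyp51 was not called with no filter (0.0525), array weights (0.0773) or the replicate block (0.0572). Over 12 alternatives its change ran from 0.31 to 0.97. Fitted on these 5 arrays alone, 6 members were called, and Idi1, Scd2, Acss2 and Cyp51 were not among them (adjusted p = 0.144, 0.127, 0.117 and 0.118).

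**Figure D3:**
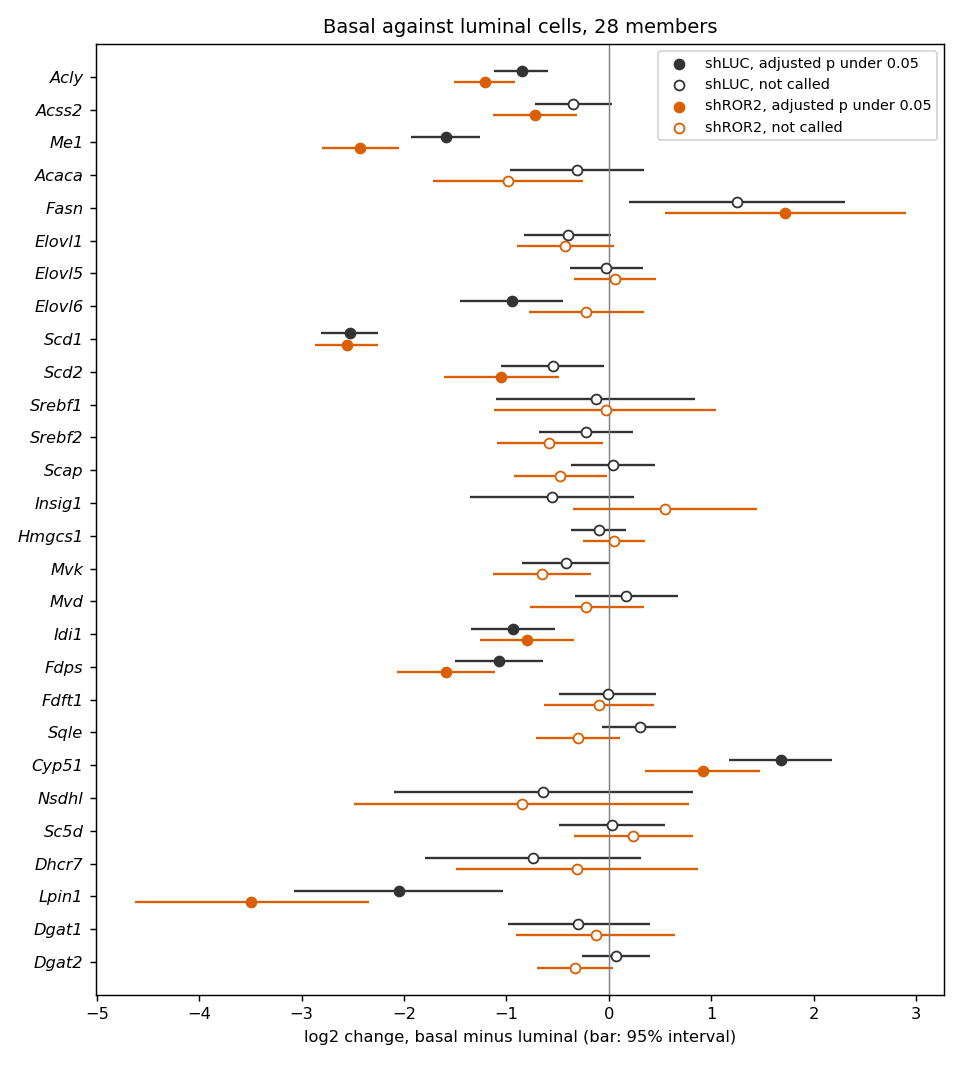
Change between basal and luminal cells (x axis, log2, basal minus luminal, with 95% intervals) for the 28 members (y axis), in shLUC (grey) and shROR2 (orange); filled points have an adjusted p under 0.05. Points for Scd1, Me1, Acly, Fdps, Idi1 and Lpin1 lie left of 0 in both and Cyp51 lies right in both; Fasn and the shROR2 value of Lpin1 rest on a group that was not well above background.

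No member was called between shROR2 and shLUC outgrowths in either compartment. In luminal cells, 0 of 28 members rose and 0 fell, beside 0.0034% and 0% of all features (limma, n = 2 and 3). Unadjusted p under 0.05 was reached by 2 members, and by 1633 of the 29429 features. The median change was 0.07, beside 0.00 over all features. In 9 of 28 members (32.1%) every shROR2 array was above every shLUC array and in 1 (3.57%) every one was below, beside 14.8% and 14.2% of all features. Without luminal shROR2 replicate 1 the median was -0.01, and without replicate 2 it was 0.17, so the higher median went with replicate 1. The 3 members of smallest p, none of which passed, were Scd2, Fdps and Dgat2. Scd2 read 368 and 261 in shROR2 against 184, 192 and 172 in shLUC cells (0.73 ± 0.25, adjusted p = 0.736). Fdps read 229 and 231 against 129, 164 and 193 (0.49 ± 0.21, adjusted p = 0.888), and Dgat2 read 474 and 331 against 299, 302 and 313 (0.34 ± 0.16, adjusted p = 0.932). Scd1 was nearly level, with a 95% interval from -0.35 to 0.27.

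In basal cells 0 members rose and 0 fell, beside 0.374% and 0.574% of all features (limma, n = 3 and 3). Unadjusted p under 0.05 was reached by 8 of the 28 members and by 4644 of the 29429 features. The median change was -0.06, beside -0.05 over all features. Groups did not overlap in 3 members that were higher (10.7%) and 4 that were lower in shROR2 (14.3%), beside 6.69% and 11.8% of all features. The 4 lower ones were Cyp51, Me1, Acly and Acss2, and the 3 higher ones were Elovl6, Insig1 and Hmgcs1. Cyp51 read 47.1, 48.4 and 35.2 in shROR2 against 86.8, 118 and 85.6 in shLUC cells (-1.07 ± 0.22, adjusted p = 0.0713). Me1 read 110, 99.1 and 104 against 191, 217 and 138 (-0.70 ± 0.15, adjusted p = 0.0734), and Acly read 85.3, 105 and 95.8 against 133, 153 and 135 (-0.48 ± 0.12, adjusted p = 0.1).

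The Cyp51 and Me1 values lay near the threshold, and the choice of processing decided the call. Cyp51 was called with normexp background correction (-0.62, adjusted p = 0.0078) and in the authors' deposited table refitted with limma (-0.57, adjusted p = 0.0111). Me1 was called in the same alternatives (-0.53, adjusted p = 0.0358, and -0.48, adjusted p = 0.0392) and with a trended prior variance (adjusted p = 0.0325). Over 12 such alternatives the adjusted p ranged from 0.0078 to 0.226 for Cyp51 and from 0.0325 to 0.332 for Me1, and for both the change stayed below 0. Within slides 1 and 2 Cyp51 changed by -1.05 and -1.09, Me1 by -0.58 and -0.94, and Acly by -0.54 and -0.35. Of the other Me1 probes, 1 moved the same way by less (-0.37, adjusted p = 0.415) and 1 was level (0.04, adjusted p = 0.966). The second Acly probe was at 0.15. Cyp51 had 1 measured probe. The change of Elovl6 was 0.84 (127, 182 and 199 against 106, 99.7 and 89.7, adjusted p = 0.121). Without basal shROR2 replicate 1, Elovl6 (1.04, adjusted p = 0.0443) and Elovl5 (0.54, adjusted p = 0.0499) were called. Insig1, which retains SCAP in the endoplasmic reticulum, read 22, 14.4 and 29.2 against 9.4, 13.6 and 8.61 (1.11, adjusted p = 0.184), close to background.

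The 3 members with the largest SD among the basal shROR2 arrays were Srebf1, Nsdhl and Dhcr7. Dgat1 (SD 0.73) and Acaca (0.65) came next. Srebf1, which encodes SREBP-1, read 117, 32.8 and 39.4 there and 30.7 to 55.7 in basal shLUC. Nsdhl, a sterol C4 decarboxylase, read 20.4, 9.22 and 75.1, and Dhcr7, the reductase of the last step to cholesterol, 73.7, 194 and 39.3. Nsdhl was lowest on basal shROR2 replicate 2 and highest on replicate 3, and Dhcr7 the other way round. Their basal shLUC signals spanned 24 to 33 and 70 to 82.5. None of the 3 passed in basal cells (adjusted p = 0.688, 0.925 and 0.864). Scd1 had a 95% interval of -0.35 to 0.21 for its basal hairpin effect.

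**Figure D4:**
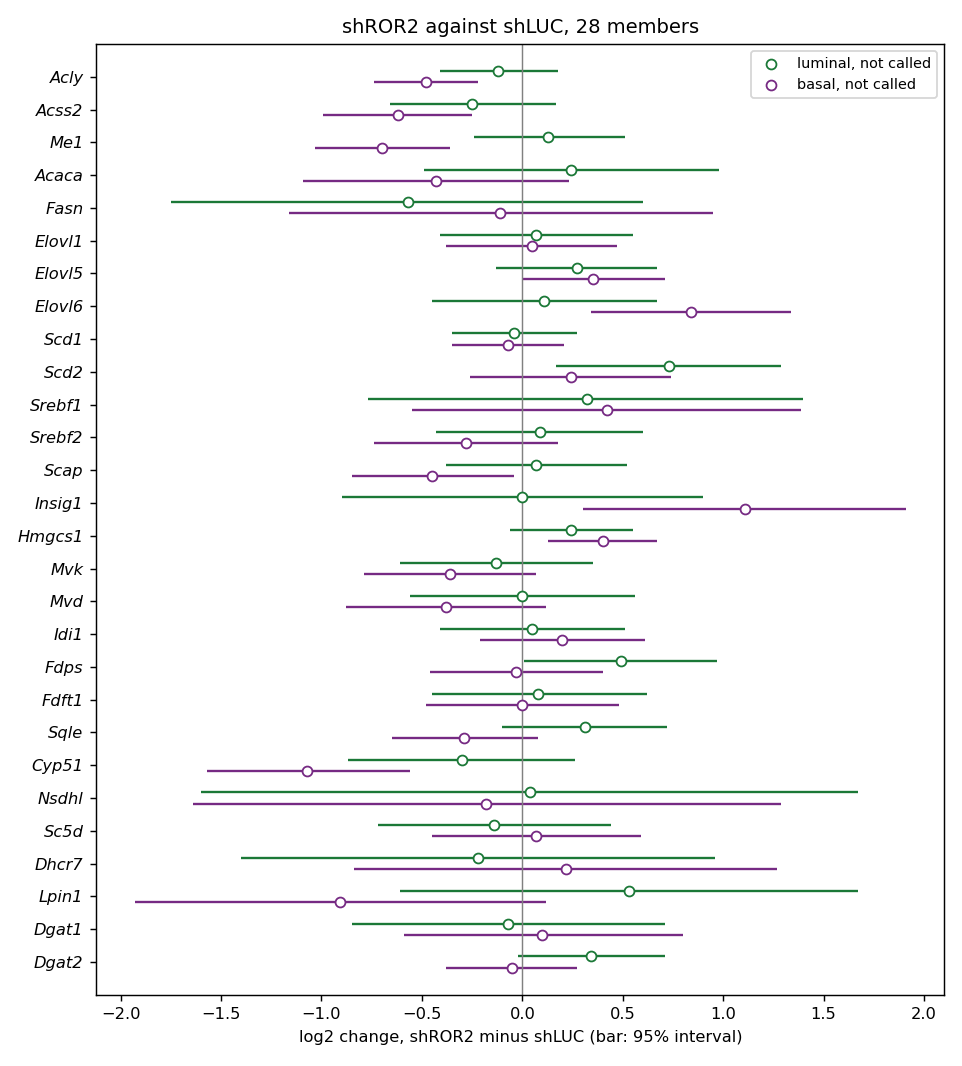
Change between shROR2 and shLUC (x axis, log2, shROR2 minus shLUC, with 95% intervals) for the 28 members (y axis) in luminal (green) and basal cells (purple); all points are open because no adjusted p was under 0.05. In basal cells Cyp51, Me1 and Acly lie left of 0 and Elovl6, Insig1 and Hmgcs1 right of it, at sizes up to 1.11. Fasn was not well above background on any luminal array, nor Lpin1 on any basal shROR2 array.

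The effect of the hairpin was also compared between the compartments, as basal effect minus luminal effect. It called 0 members in either direction, beside 0% and 0% of all features, with 3 members and 2443 features at an unadjusted p under 0.05. The median was -0.22, beside -0.05 over all features. The smallest p belonged to Me1 (-0.83 ± 0.22, adjusted p = 0.389), Sqle (-0.59 ± 0.24, adjusted p = 0.572) and Cyp51 (-0.76 ± 0.33, adjusted p = 0.597). So a hairpin effect on these genes was not shown to differ between luminal and basal cells. Averaged over both compartments, 0 members rose and 0 fell, beside 0.272% and 0.173% of all features, with 8 members and 3455 features at an unadjusted p under 0.05. Cyp51 (-0.68 ± 0.17, adjusted p = 0.146), Hmgcs1 (0.32 ± 0.09, adjusted p = 0.196) and Acss2 (-0.43 ± 0.12, adjusted p = 0.201) came first. Cyp51 passed in the average with normexp correction (-0.38, adjusted p = 0.0289) and in the authors' deposited table refitted with limma (-0.34, adjusted p = 0.0386), where the alternatives ranged from 0.0289 to 0.239.

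Several probes measured 8 of the members. Between shLUC compartments the 3 Me1 and 2 Acly probes were all called lower, and the Acaca, Acss2 and Fdft1 probes did not share a sign. Between basal shROR2 and shLUC cells the probes of Acly, Acss2, Acaca, Elovl1 and Srebf2 differed in sign, and Me1 ran from -0.70 to 0.04. The value given for a gene elsewhere is that of its brightest probe. Where a member counted only if all its probes were called one way, 8 members were called between shLUC compartments and 9 between shROR2 compartments, where Acss2 dropped out.

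**Figure D5:**
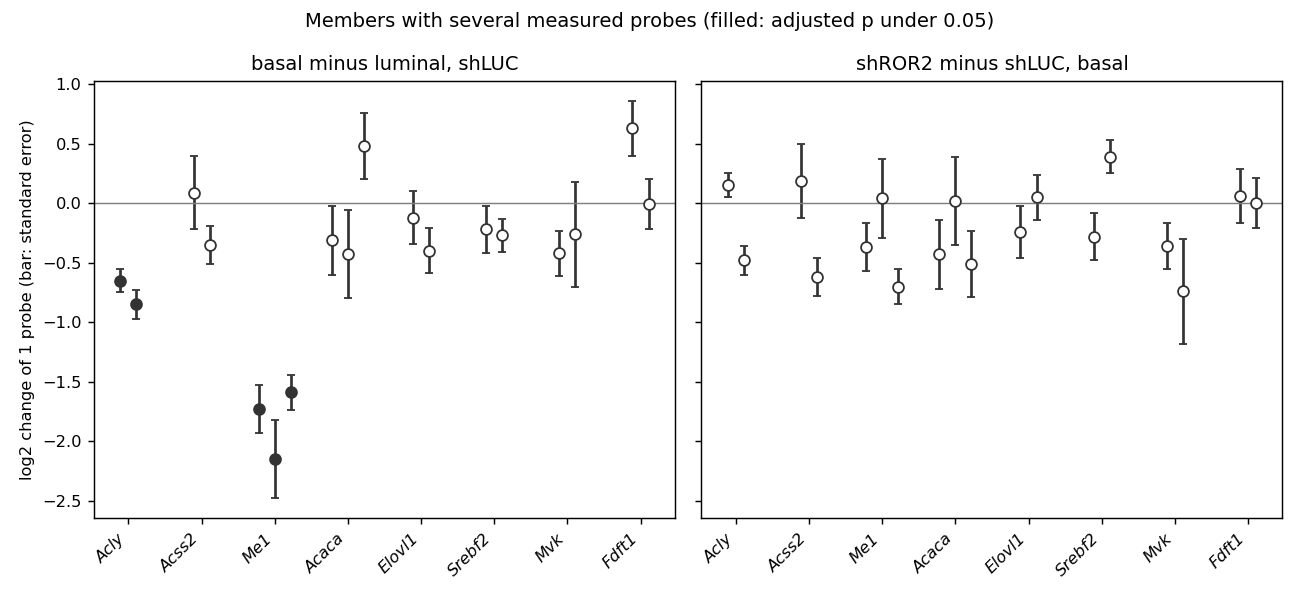
Change of each measured probe (y axis, log2, bars are standard errors) for the 8 members with several probes, between shLUC compartments (left) and between basal shROR2 and shLUC cells (right); filled points have an adjusted p under 0.05. On the left all Me1 and Acly probes are filled and below 0; on the right no probe is filled, and the Acly probes lie at 0.15 and -0.48.

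A further 41 genes of the same pathways, of which 40 were tested, were mostly lower in basal cells where they were called. In shLUC, 10 fell and 4 rose in basal cells (25% and 10%, beside 13% and 13.8% of all features), with a median of -0.19 beside -0.06. In shROR2, 8 fell and 5 rose (20% and 12.5%, beside 12.3% and 10.6%), with a median of -0.22 beside -0.08. Plin2, a coat protein of lipid droplets, fell by 2.08 ± 0.12 in shLUC (4.24-fold, adjusted p = 2.32e-06) and by 2.18 in shROR2 (4.55-fold, adjusted p = 5.67e-06). Thrsp, a lipogenic nuclear protein, fell by 4.27 ± 0.54 in shLUC (adjusted p = 0.000449), with 1 of 3 basal arrays well above background, and by 1.19 at the least under the alternatives. Abcg1, a sterol exporter, fell by 1.88 in shLUC (adjusted p = 0.00113). In shROR2, Thrsp was called in only 4 of 23 alternatives (-1.79 to -0.66) and Abcg1 in only 3 of 23 (-1.08 to -0.5). The acyl-CoA synthetase gene Acsl1 fell by 1.43 in shROR2 (adjusted p = 0.00197, and 0.0604 when only those groups were fitted). Acsl4, an acyl-CoA synthetase that prefers arachidonate, rose instead, by 1.84 ± 0.11 (3.58-fold, adjusted p = 3.3e-06) and 1.15 (2.21-fold, adjusted p = 0.000189).

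Acsl4 was also the only one of these 40 genes called between hairpins. In luminal cells 0 of the 40 passed, and the smallest p were those of Insig2 (-0.81, adjusted p = 0.422), Acsl1 (0.56, 0.833), Acsl4 (-0.27, 0.907) and Fads1 (0.35, 0.908). In basal cells Acsl4 fell by 0.96 ± 0.11 in shROR2 (1.95-fold, adjusted p = 0.0113), from a scaled mean of 4.65 ± 0.07 to 3.69 ± 0.11 (SD, n = 3 and 3). The call was lost without basal shLUC replicate 1 (-0.97, adjusted p = 0.0535) or basal shLUC replicate 2 (-0.92, adjusted p = 0.0555), with the replicate number as a block (0.0638) and when only those groups were fitted (0.186). Next in basal cells came Mbtps2, Mylip and Thrsp, which did not pass (-1.57, 0.92 and 2.38, adjusted p = 0.0697, 0.0842 and 0.0871). Averaged over compartments Acsl4 fell by 0.62 (adjusted p = 0.0236), and 11 of 22 alternatives kept that call, with adjusted p up to 0.124. It was lost without any 1 of the 5 luminal or 3 basal shLUC arrays (-0.65 to -0.58). The difference of its effect between compartments did not pass (-0.69, adjusted p = 0.338).

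Markers of other cells moved with both comparisons. Milk and alveolar genes, which mark secretory luminal cells, summed to 60.9 to 69.3 times the 75th percentile on luminal arrays and 2.57 to 5.21 on basal arrays, and 7 of 8 were called lower in basal cells in either hairpin group. Adipocyte genes, which share the lipid pathways, summed to 10.3 to 12 on luminal shLUC arrays and 16.7 to 18.2 on luminal shROR2 arrays. Their sums on basal arrays were 25.5 to 28.4 with shLUC and 48.9 to 59.9 with shROR2. Of the 12 listed, 8 were tested, and 6 to 8 of these were well above background on each array. Those not tested were at or near background, with Lep well above it on 0 of 11 arrays and Adipoq, Cfd and Car3 on 1 each. The brightest adipocyte gene was Fabp4, a fatty acid carrier. It reached 4980, 6230 and 5030 in basal shROR2 against 2920, 2900 and 2640 in basal shLUC (1.02, adjusted p = 0.0215). The summed signals of all 8 tested genes on those arrays were 5570, 6910 and 5660 against 3290, 3350 and 3020, so Fabp4 made up most of the sum. Between basal hairpins 1 of the 8 was called higher and 0 lower. Between basal and luminal cells 2 were called higher and 2 lower in shLUC, and 3 and 1 in shROR2. Leukocyte genes summed to 52.9 to 56 with shLUC and 77.5 to 82.5 with shROR2 on luminal arrays, and to 25.5 to 30 and 54.8 to 66.5 on basal arrays. Endothelial genes summed to 10.8 to 11.5, 13.4 to 13.7, 19.7 to 25 and 36.4 to 45.3 over those 4 groups, and fibroblast genes summed to 6.22 to 6.36, 10.7 to 10.8, 48.5 to 52.8 and 47.3 to 62.5. Genes of hormone-sensing luminal cells summed to 112 to 120, 152 to 154, 6.87 to 7.33 and 12.1 to 12.9. The part of these cells in the members' differences was not tested.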

How the data were processed

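RNA of sorted luminal and basal mammary cells was amplified with the NuGEN Ovation Pico kit per the labels and measured on 11 one-colour Agilent arrays in 4 groups taken from the sample labels. Per the file headers, the deposited intensity of each spot was background-corrected and detrended within its array by Feature Extraction 11.0.1.1, without scaling between arrays. A table from the authors gives linear intensity too, with its normalization not stated in the labels.

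Spots of 1 probe were averaged without control and outlier spots. The values tested were log2 of the processed signal minus the array's 75th percentile. Probes had to be well above background on 3 or more arrays, which 33628 were, and 17 of those with a missing value were left out. Probes were named through RefSeq accessions (GRCm38.p6), which gave a symbol to 26582 of 55681 probes, and the brightest probe stood for a gene. The 11 arrays entered 1 limma 3.58.1 model of 4 group means (R 4.3.3, with version 1.17.8 of data.table), with 2-sided p-values adjusted over all 29429 features and called under 0.05. Plots used Python 3.11.15 and matplotlib 3.10.9. The fit was tested on simulated data with the same spread in every group, so the wider spread of basal shROR2 was not covered. The number of arrays limits the precision.

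Members, pathway and marker lists were chosen with earlier results of these data known. Named with values were the 10 members of smallest p between shLUC compartments, any member called between hairpins and otherwise the 3 of smallest p, and, of the other pathway genes, the 4 of smallest p per comparison and any called between hairpins. A gene that this rule names is not reported here. Members whose hairpin groups did not overlap, those uneven among arrays and those the compartment calls turn on were added after their values were seen. Same-numbered samples of different groups correlated at -0.0374 to 0.0399 in their deviations over 15 pairs, so no pairing was used. Alternatives were normexp correction (offset 50), quantile and median scaling, the values of the authors, other filters, the mean of probes, blocks for slide and replicate number, array weights, a trended prior, fits of only the groups compared, the leaving out of each array and, chosen after seeing the data, each probe on its own. Normexp was run on the median signal and median background, in place of the mean signal planned.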

Additional observations from a re-analysis of the deposited data

How the results depend on the processing

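Between shLUC compartments all 8 members stayed called under every alternative run. The members' median was -0.2 with normexp, -0.22 in the authors' table and -0.25 with the mean of probes. Leaving out each array gave 8 to 9 members called, 5829 to 9542 features and a median of -0.38 to -0.28. Between shROR2 compartments, a fit of only those groups called 6 members and 2822 features, and the median was -0.48 with array weights, -0.26 in the authors' table and -0.27 with normexp. Without 1 array there were 6 (luminal shROR2 replicate 2) to 12 members (basal shROR2 replicate 2), 3770 to 7539 features and a median of -0.54 to -0.29.

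Between luminal hairpins, the features called were 23 with normexp, 22 in the authors' table, 5 with quantile and 0 with median scaling, 3 with no filter, 6 with probes well above background on every array of a group, 62 with array weights and 28 with a trend. They were 0 with the mean of probes, the slide block, the replicate block and only the groups compared. Without 1 array, 0 to 0 members and 0 to 10 features were called, with a median of -0.01 to 0.17. Between basal hairpins, 2 members and 687 features were called with normexp, 2 and 538 in the authors' table, and 1 and 678 with a trend. Features numbered 130 with no filter, 129 with the slide block, 37 with the replicate block, 44 with array weights and 0 with only the groups compared. The median was 0.01 with median scaling. Without 1 array, 0 to 2 members were called (2 without basal shROR2 replicate 1), 21 to 877 features, and the median was -0.14 to 0.

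The difference of hairpin effects called 7 features with normexp, 7 in the authors' table, 2 with quantile and 1 with median scaling, 3 with the filter on every array of a group and 22 with a trend. Its median was -0.09 with normexp, -0.07 in the authors' table and -0.13 with the mean of probes. Without 1 array it called 0 to 0 members and 0 to 8 features, with a median of -0.34 to -0.14. The average called 1 member and 303 features with normexp, 1 and 290 in the authors' table, and 301 features with a trend, 56 with no filter, 54 with the slide block and 0 with the replicate block. Without 1 array it called 0 to 0 members and 0 to 299 features, with a median of -0.06 to 0.01. The Ror2 change was 0.01 to 1.34 in luminal cells and -1.19 to 0.05 in basal cells, and reversed to 0.05 without basal shROR2 replicate 2. The cause of these shifts was not tested.

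Deviations of same-numbered samples had a median correlation of 0.0207, against -0.00804 for other pairs, and 4 of 11 arrays correlated best with an array of their own number. The labels do not say whether same-numbered samples share an outgrowth, and weak correlation cannot settle it. With the replicate block, Acss2 (-0.7), Cyp51 (0.96) and Fasn lost their calls between shROR2 compartments, with adjusted p of 0.057, 0.0572 and 0.0539. Signal near background limits Fasn, Lpin1, Insig1 and Ror2, and Lss and Gpam could not be tested. Nsdhl was well above background on 2 of 3 basal shROR2 arrays.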
